A study of Mus musculus with 5 samples.

Results

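Cancer cells of 4T1 mammary tumors were picked out of 3 whole-tumor single-cell libraries, chosen by their epithelial transcripts. A barcode was kept with at least 200 detected genes, and a kept barcode was taken as a cancer cell when it held unique molecular identifiers (UMIs, counted RNA molecules) of at least 3 of the 7 epithelial genes Epcam, Krt7, Krt8, Krt18, Krt19, Cldn4 and Wfdc2 and none of Ptprc, the pan-leukocyte gene CD45. This gave 79 cancer cells of 1020 kept barcodes. The whole-tumor libraries held 1054 barcodes, of 11119 in all 5 libraries of the series, and the deposited barcodes are fewer than the tumor-derived cells that the study's text counts, so shares below are of deposited barcodes only. There were 29 cancer cells in the control-labelled, 7 in the sensitive-labelled and 43 in the resistant-labelled library. The comparison below is between the 29 and the 43 cells, and values of the 7 cells are given for the share and for the sums of the main gene lists.

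4T1, here the 4T1-Thy1.1 line (spelled 4T1-Th1.1 in the series record), is a BALB/c mammary carcinoma line used as a model of triple negative breast cancer, and it was grown in mammary fat pads of BALB/c animals labelled 12 weeks old. Mice of the sensitive-labelled and resistant-labelled groups received 3 intravenous doses of doxorubicin (DOX, a topoisomerase II poison) at 5 mg/kg, 3 days apart, and the control-labelled group received saline. The source field of the resistant-labelled library named a sensitive tumor while its title and its sensitivity field read resistant, so the libraries are called by their titles. The control-labelled library's source field also named a sensitive tumor, given saline. How many tumors went into a library is not given in the sources used here. With 1 library a group no comparison has replicates, no test was run, and every interval covers counting error only.

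Epithelial cancer cells carry keratins and the adhesion molecule Epcam, and they show antigen to T cells on MHC class I. Interferons act through cell surface receptors whose signal switches on antiviral genes, immune GTPases and the genes of class I presentation. Interferon gamma also induces CIITA, the master regulator of MHC class II genes, which are otherwise typical of professional antigen-presenting cells.

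The libraries held 1654559 (control-labelled), 537293 (sensitive-labelled) and 1731940 (resistant-labelled) UMIs, and no barcode was shared between them. Cancer cells were far deeper than the other kept barcodes. In the control-labelled library they held 668 to 65617 UMIs (median 13984), and in the resistant-labelled library 1446 to 56389 (median 18400), against medians of 1504 and 2494 in the other kept barcodes. Summed over cells, the cancer cells gave 497761 and 827101 UMIs, which set the precision of the values below, and 42034 in the sensitive-labelled library. The 37 mitochondrial features listed had 0 UMIs, so mitochondrial RNA was no measure of cell quality here. Doublets were not called.

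The share of cancer cells among kept barcodes was higher in the resistant-labelled than in the control-labelled library. It was 5.94% in the control-labelled (exact Clopper-Pearson 95% interval 4.02 to 8.42), 2.60% in the sensitive-labelled (1.05 to 5.29) and 16.3% in the resistant-labelled library (12.1 to 21.4). The resistant-labelled share was 2.75 times that of the control-labelled library (delta-method 95% interval 1.76 to 4.30). Cancer cells aside, at least 3 of 7 neutrophil genes had UMIs in 345 of 488 control-labelled and 165 of 263 resistant-labelled kept barcodes. Without these barcodes the share of cancer cells was 20.3% in the control-labelled and 43.9% in the resistant-labelled library, a ratio of 2.16. Cancer cells that held such transcripts were not left out. A share of barcodes depends on which cells survive tissue digestion, and this was not tested.

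**Figure D1:**
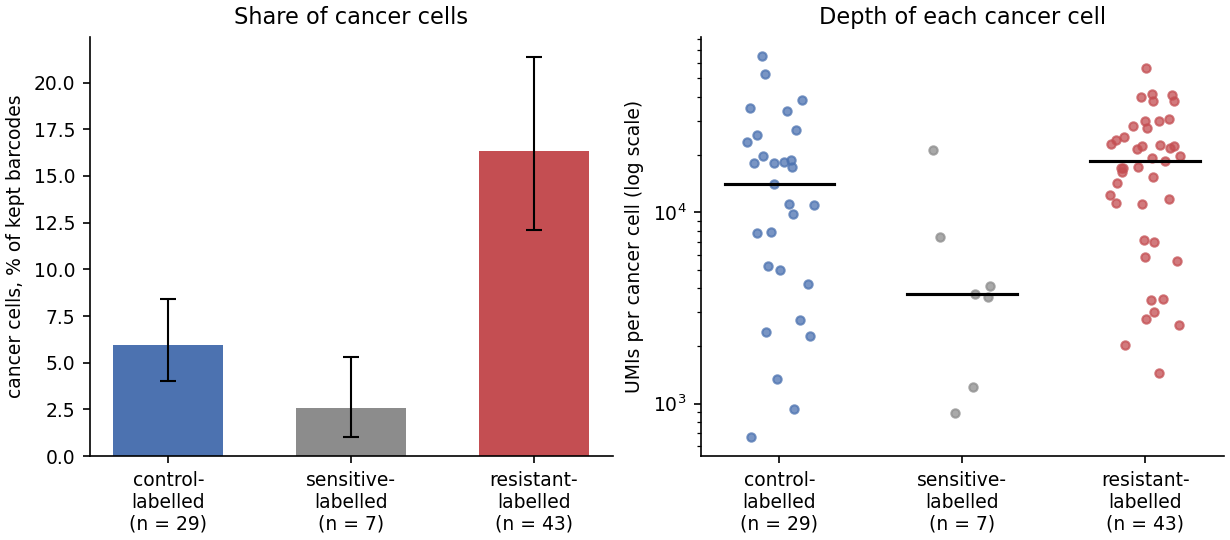
Left, cancer cells as a percentage of kept barcodes in each whole-tumor library, with Clopper-Pearson 95% intervals as error bars. Right, UMIs per cancer cell on a log axis, 1 point a cell with the median as a line. The share stands at 16.3% in the resistant-labelled and 5.94% in the control-labelled library, and the depths of their cells overlap.

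Most cells passed the rule with room to spare. At least 6 of the 7 genes were seen in 21 of 29 control-labelled and 30 of 43 resistant-labelled cells, and in 0 of 7 sensitive-labelled cells. Just inside the limit, with exactly 3 genes, stood 4 control-labelled, 3 sensitive-labelled and 3 resistant-labelled cells. Just outside it, with 2 genes and no Ptprc UMI, stood 2, 0 and 6 barcodes, and Ptprc UMIs kept out 5, 0 and 5 barcodes that had the epithelial genes. In CPM, the UMIs of a gene per 1000000 UMIs summed over the cells, the rule genes stood at similar levels in both main libraries, as a description: Krt18 at 2399 and 2209, Wfdc2 at 1714 and 1843, Epcam at 653 and 598, and Cldn4 at 319 and 261 in the control-labelled and resistant-labelled cells.

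Epithelial genes that the rule did not use marked the same cells. Cdh1, the epithelial cadherin, had UMIs in 15 of 29 and 28 of 43 cancer cells, or 51.7% and 65.1%, against 2.61% and 10.9% of the other kept barcodes. Spint2, an epithelial protease inhibitor, was seen in 93.1% and 90.7% of cancer cells against 10.9% and 10.5% of the other barcodes. For the tight junction gene Cldn3 the shares were 58.6% and 72.1% against 1.09% and 2.27%. Shares rise with depth, and cancer cells were deeper. Cdh1 was at 92.4 and 109 CPM in cancer cells against 14.9 and 49.2 in the other barcodes. The part of depth in the gaps was not tested. Markers of endothelium, T cells and red cells were rare: Pecam1 had 0 UMIs in both main libraries, the T cell gene Cd3e had 0 and 3, and the hemoglobin gene Hbb-bs 2 and 0. Neutrophil genes were not: 17 of them gave 1309 and 1711 UMIs, and S100a8 was seen in 29 of 29 and 40 of 43 cells. Fibroblast genes gave 40 and 1463 UMIs, and macrophage genes, Cd74 among them, 250 and 1187. Of receptors that define the triple negative class, Pgr had 0 UMIs, Esr1 had 4 and 6, and Erbb2 had 11 and 12.

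One resistant-labelled cell went against the label. It held 30610 UMIs, of which 4 were of rule genes (1 of Krt8, 2 of Krt18 and 1 of Krt19), and it carried 1275 of the 1297 UMIs of the collagen genes Col1a1, Col1a2 and Col3a1 found over all 43 cells. Decorin (Dcn) gave 76 UMIs, all in this cell. It also held 16 of the 18 Xist UMIs and 5 of the 8 Thy1 UMIs of the resistant-labelled cells. This collagen-rich cell stays in the sums because the rule takes it, and results that rest on it are given with and without it.

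Genes with at least 50 UMIs over both libraries' cancer cells were compared, 3111 of them. Called here means a CPM ratio, resistant-labelled over control-labelled, of at least 2 or at most 0.5. Of all genes compared, 146 were at least 2-fold higher (4.69%) and 80 at most 0.5 times (2.57%) in the resistant-labelled cells, 7.26% either way, around a median log2 ratio of 0.00. Single cells carried part of these: without the cell holding most of the gene's UMIs, 90 of the 146 and 42 of the 80 stayed past 2-fold. Ratios below carry an exact conditional binomial 95% interval.

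Interferon response genes were higher in the resistant-labelled cells. The 29 listed genes summed to 1892 and 5241 CPM, a ratio of 2.77 (2.58 to 2.97), and 28 of the 29 had a higher CPM in the resistant-labelled cells. Of the 29, 16 reached 50 UMIs and 16 of 16 were at least 2-fold higher (4.69% of all genes compared), but 13 of the 16 had under 50 UMIs in the control-labelled cells and reached the limit with those of the resistant-labelled cells, so that count is a description only. The other 3, Ifitm3, Bst2 and Ifi27, had ratios of 2.01, 3.76 and 2.08. Ratios ran from 2.01 for Ifitm3, a membrane protein that blocks viral entry, to 27.4 for Iigp1, an immunity-related GTPase. Without the top cell of each gene 12 of 16 stayed at least 2-fold higher.

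Regulators of the pathway differed in their ratios. Irf7, a transcription factor that amplifies the interferon response (ENSMUSG00000025498.15), had 3 UMIs in 3 of 29 control-labelled cells and 103 UMIs in 25 of 43 resistant-labelled cells. This was 6.03 and 125 CPM, a ratio of 20.7 (6.88 to 102). Per cell, Irf7 ran from 0 through a median of 0 to 71.5 CPM in the control-labelled library and from 0 through 46.7 to 523 CPM in the resistant-labelled library, so the ranges overlapped at the low end. Irf1, an early interferon-induced transcription factor, was at 66.3 and 140 CPM, a ratio of 2.12 (1.43 to 3.22). Irf9, a subunit of the factor that binds the interferon-stimulated response element, had 11 and 16 UMIs, or 22.1 and 19.3 CPM, under the limit of 50 UMIs, and was the 1 listed gene with a lower CPM in the resistant-labelled cells.

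Effectors showed the same direction. Bst2, or tetherin, which holds budding virus at the cell surface, had UMIs in 23 of 29 and 41 of 43 cells, and Ifitm3 in 28 of 29 and 40 of 43. Bst2 per cell ran from 0 through a median of 220 to 1502 CPM in the control-labelled cells and from 0 through 850.5 to 3152 CPM in the resistant-labelled cells. Over all cells Bst2 stood at 263 and 989 CPM, a ratio of 3.76 (3.12 to 4.55). The GTPases that guard against intracellular pathogens were higher too. Igtp went from 4 to 72 UMIs (ratio 10.8, 4.05 to 40.8) and Gbp2 from 23 to 133 (ratio 3.48, 2.22 to 5.68). Irgm1, of the same GTPase family and outside the list, stood at 3 and 75 UMIs (ratio 15.05, 4.95 to 74.6). Isg15, the ubiquitin-like modifier, stood at 11 and 113 UMIs (ratio 6.18, 3.33 to 12.7), and the nucleic acid sensor Zbp1 at 9 and 93 (ratio 6.22, 3.14 to 14.0). For Ifi27l2a 1 cell mattered, since its ratio of 8.27 was 4.06 without the collagen-rich cell.

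**Figure D2:**
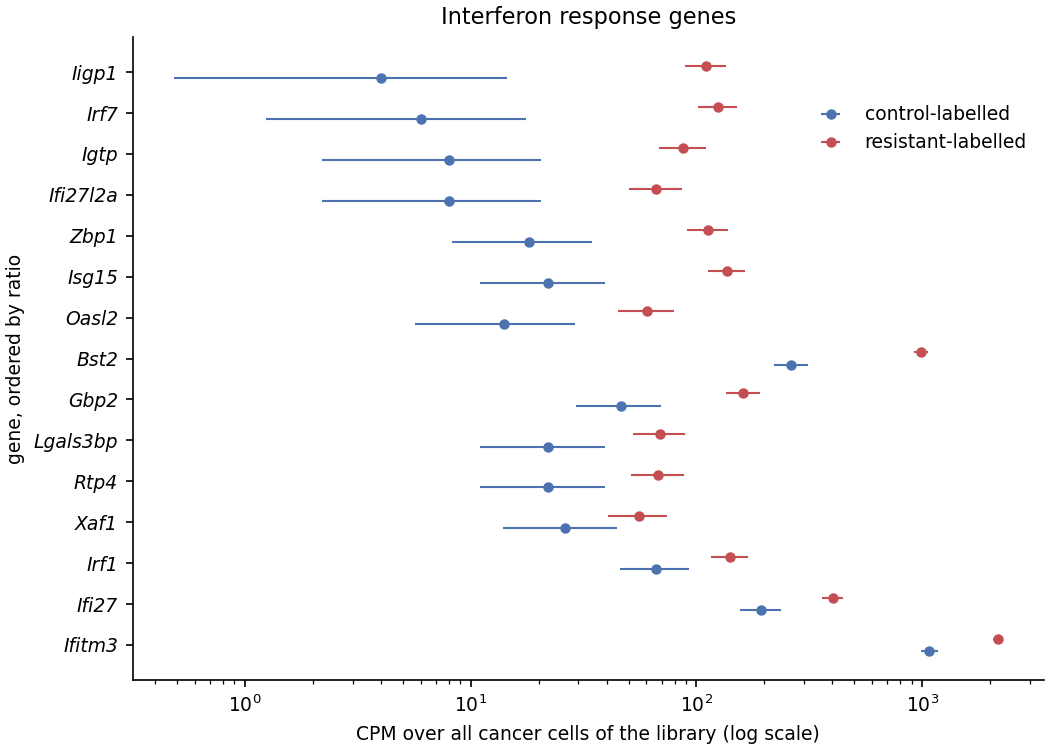
CPM over all cancer cells of the control-labelled (blue, 29 cells) and resistant-labelled library (red, 43 cells) on a log axis for 15 of the 16 interferon response genes with at least 50 UMIs (the other is not reported here), ordered by ratio, with exact Poisson 95% intervals. Red lies to the right of blue for each gene, by 2.01-fold for Ifitm3 and 27.4-fold for Iigp1.

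Promoters are shown for interferon genes whose RefSeq promoter (GRCm38.p6) holds the core of the interferon-stimulated response element, GAAANNGAAA on either strand, before the start site, since these genes were higher together. A promoter entry was matched for 10 of the 16 genes, and 4 of the 10 held the core in the 250 bases before the start, as did Irgm1, against 2.98% of 32851 promoters. The interferon gamma-activated site, TTCNNNGAA on both strands alike, was found in 3 of the 10 (Bst2, Igtp and Irf1) against 7.02%. The 140 bases before the start are printed 5′ to 3′, with each match to the core in capitals. They lie at chr4:156200819-156200958 (Isg15, minus strand), chr8:71537473-71537612 (Bst2, minus), chr11:58199416-58199555 (Igtp, plus), chr3:142620523-142620662 (Gbp2, plus) and chr11:48871421-48871560 (Irgm1, minus).
Isg15: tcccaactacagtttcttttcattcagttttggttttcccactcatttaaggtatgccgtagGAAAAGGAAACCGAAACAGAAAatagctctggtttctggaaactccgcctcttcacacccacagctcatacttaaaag
Bst2: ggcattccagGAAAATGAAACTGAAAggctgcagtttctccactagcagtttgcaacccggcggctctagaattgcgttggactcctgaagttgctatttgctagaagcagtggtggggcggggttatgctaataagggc
Igtp: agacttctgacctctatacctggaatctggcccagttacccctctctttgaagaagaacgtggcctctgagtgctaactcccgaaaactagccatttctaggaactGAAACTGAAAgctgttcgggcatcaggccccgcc
Gbp2: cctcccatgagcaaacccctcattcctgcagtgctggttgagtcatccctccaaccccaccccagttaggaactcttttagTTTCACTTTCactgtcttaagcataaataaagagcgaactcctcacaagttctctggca
Irgm1: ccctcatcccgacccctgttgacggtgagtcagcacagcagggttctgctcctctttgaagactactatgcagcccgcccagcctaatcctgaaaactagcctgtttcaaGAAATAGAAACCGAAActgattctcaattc

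In Isg15 there were 3 overlapping matches, in Bst2 and Irgm1 2 each, and in Igtp and Gbp2 1 each. The nearest ended 14 bases before the start in Irgm1, 24 in Igtp, 49 in Gbp2, 56 in Isg15 and 114 in Bst2. A match is a description of these letters, not of a bound site. Irf7 had an entry and no such letters in this window.

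Interferon levels were also compared cell by cell. The summed CPM of the 29 listed genes ran from 0 through a median of 1825 to 5240 in the control-labelled cells and from 992 through 4644 to 13045 in the resistant-labelled cells. Of 43 resistant-labelled cells, 40 lay above the control-labelled median and 18 above the highest control-labelled cell, so the ranges overlapped but were shifted across most cells. The 7 sensitive-labelled cells ran from 2152 through 4603 to 26907, with neutrophil gene sums from 1073 through a median of 4843 to 45492 CPM, a median above the 2281 and 1160 CPM of the control-labelled and resistant-labelled cells. The cell at 26907 CPM was also the one at 45492 CPM of neutrophil genes, with 1664 CPM of rule genes, and the part of neutrophil RNA in these values was not tested. For a comparison at 1 depth, 2000 UMIs were drawn from each cell, leaving out 3 control-labelled, 2 sensitive-labelled and 1 resistant-labelled cell with fewer. UMIs of at least 3 interferon genes were then found in 8 of 26 control-labelled (30.8%, 14.3 to 51.8), 5 of 5 sensitive-labelled and 38 of 42 resistant-labelled cells (90.5%, 77.4 to 97.3). Unthinned, the shares were 72.4% and 100% in the control-labelled and resistant-labelled cells.

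Neutrophil transcripts were seen in the cancer cells and were lower in the resistant-labelled library, where interferon genes were higher. The sum of 17 neutrophil genes ran from 890 through a median of 2281 to 13473 CPM in the control-labelled cells and from 331 through 1160 to 12010 CPM in the resistant-labelled cells. With 2 rule genes enough for a cancer cell, the direction of S100a8, a defining neutrophil transcript, turned (log2 ratio 0.30). S100a8 stood at 852 and 391 CPM in the cancer cells and at 128585 and 88236 CPM in neutrophils. Neutrophils here are kept barcodes with at least 3 neutrophil genes and at least 5% of UMIs from S100a8 and S100a9, a limit set after the values were seen. The part of neutrophil RNA in the interferon difference was not tested. Neutrophils themselves were also higher in the resistant-labelled library: 9 of 12 interferon genes were at least 2-fold higher, against 5.07% of the genes compared in them, with a median ratio of 3.73. In barcodes with at least 3 of 7 macrophage genes, 9 control-labelled and 37 resistant-labelled, the count was 3 of 7, against 8.78%. These counts passed the same limit of 50 UMIs over both libraries and are a description.

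The receptors that start the pathway were detected in cancer cells. The interferon gamma receptor chains Ifngr1 (18 and 38 UMIs, ratio 1.27, 0.71 to 2.36) and Ifngr2 (19 and 38 UMIs, ratio 1.20, 0.68 to 2.21) were under 2-fold apart. Ifnar1 and Ifnar2, the type I interferon receptor chains, had 2 and 15 and 9 and 40 UMIs and were under the limit of 50. The interferons Ifng and Ifnb1 had 0 UMIs in cancer cells, where a count of 0 allows up to 6.03 and 3.63 CPM.

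MHC class I genes were moderately higher, at 9587 and 16929 CPM summed over the list, a ratio of 1.77 (1.71 to 1.83). Of 15 genes compared, 14 had a ratio above 1 and 3 were at least 2-fold higher (4.69% of all genes), with a median ratio of 1.66. The light chain B2m was the most abundant, at 3269 and 6007 CPM, a ratio of 1.84 (1.74 to 1.94). Its per-cell level ran from 975 through a median of 3564 to 42508 CPM in the control-labelled cells and from 621 through 5913 to 33811 CPM in the resistant-labelled cells, almost the same range with a higher centre. The heavy chains H2-K1 and H2-D1 had ratios of 1.66 (1.51 to 1.83) and 1.89 (1.78 to 2.01), and reads of such paralogs can be split between near-identical copies. The 3 past 2-fold were the peptide transporter Tap1 at 3.14 (1.52 to 7.29), the nonclassical heavy chain H2-T23 at 2.89 (2.10 to 4.06) and the immunoproteasome subunit Psmb9 at 2.48 (1.85 to 3.39). Calr, a chaperone, was at 482 and 467 CPM, a ratio of 0.97 (0.82 to 1.14). Summed per cell, class I levels of the 7 sensitive-labelled cells had a median of 19417 CPM, against 10584 in the control-labelled and 15866 in the resistant-labelled cells. In neutrophils 5 of 11 class I genes were at least 2-fold higher (5.07% of all genes there), and in macrophage barcodes 0 of 12 (8.78%).

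MHC class II genes were higher too, in a list drawn up after their values had been seen. The 8 listed genes summed to 663 and 1995 CPM, a ratio of 3.01 (2.67 to 3.40). Of the 6 that reached 50 UMIs, 5 had fewer than that in the control-labelled cells, and 6 of 6 were at least 2-fold higher (4.69% of all genes), a count that the choice of genes and the limit fix in part. Cd74, the invariant chain, had 219 UMIs in 21 of 29 control-labelled and 1071 UMIs in 37 of 43 resistant-labelled cells. This was 440 and 1295 CPM, a ratio of 2.94 (2.54 to 3.42). The alpha and beta chains H2-Aa, H2-Eb1 and H2-Ab1 had ratios of 3.53 (2.39 to 5.39), 3.52 (2.21 to 5.90) and 2.72 (1.87 to 4.04). The peptide loaders H2-DMa and H2-DMb1 stood at 2.46 (1.29 to 5.08) and 3.49 (1.77 to 7.66). Ciita, their regulator, had 0 UMIs in the control-labelled and 9 UMIs in 5 resistant-labelled cells.

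Cd74 is also a macrophage transcript, and macrophage genes were counted in the same cells. For each UMI of Lyz2, a lysozyme gene of myeloid cells, the cancer cells held 36.5 UMIs of Cd74 in the control-labelled and 36.9 in the resistant-labelled library, against 0.51 and 0.29 in the macrophage barcodes. In those, 0 of 5 class II genes were at least 2-fold higher (8.78% of all genes there), with a median ratio of 0.68. Lyz2 itself had 6 and 29 UMIs, Apoe 6 and 49, and the complement genes C1qa, C1qb and C1qc together 1 and 15 in cancer cells. Apoe was among the higher genes, at a ratio of 4.91 (2.10 to 14.0) with at most 4 UMIs in a cell. In neutrophils Apoe had 30 and 150 UMIs. After thinning to 2000 UMIs it was seen in 2.30% and 29.6% of them, and in 0 of 26 and 4 of 42 cancer cells. In neutrophils Cd74 had 18 and 3 UMIs, and after thinning to 2000 UMIs it was seen in 5.75% and 2.82% of them against 34.6% and 66.7% of cancer cells. The part of RNA from macrophages or other cells in the class II values was not tested.

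**Figure D3:**
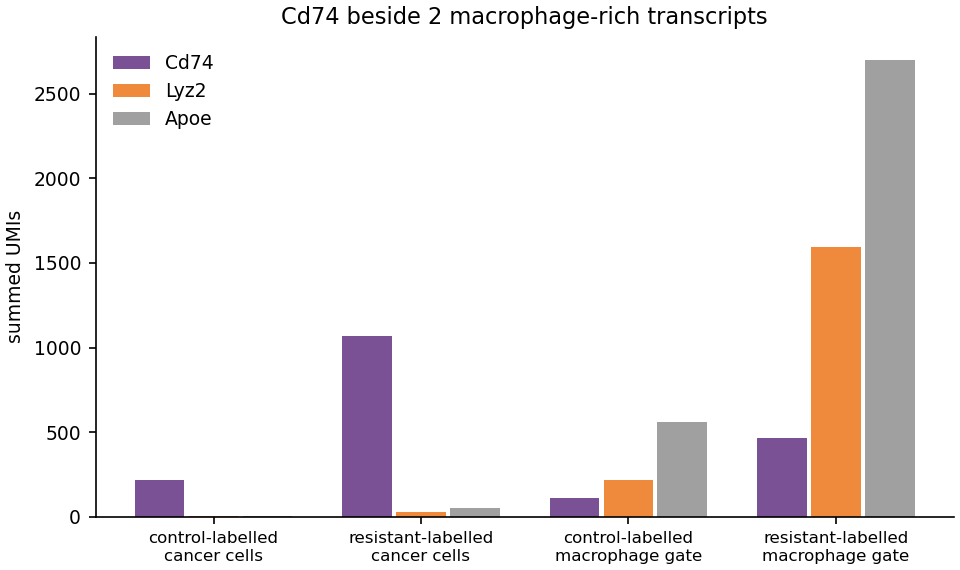
Summed UMIs of Cd74, Lyz2 and Apoe in cancer cells and in macrophage barcodes of the control-labelled and resistant-labelled libraries. Cd74 stands far above Lyz2 and Apoe in cancer cells (1071 against 29 and 49 UMIs in the resistant-labelled library) and below both in macrophage barcodes (464 against 1593 and 2702).

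Class II levels were uneven between cells. Summed over the list, they ran from 0 through a median of 150 to 6936 CPM in the control-labelled cells and from 0 through 1160 to 7142 CPM in the resistant-labelled cells. In the resistant-labelled library no cell lay between 2327 and 4065 CPM, and 12 of 43 cells (27.9%) lay above this gap. They held 67.9% of all class II UMIs, and the limit of 3000 CPM that sets them apart was chosen after the values were seen. In the control-labelled library 1 of 29 cells lay above it, at 6936 CPM, and the next stood at 2226 CPM. The 7 sensitive-labelled cells ran from 0 through a median of 1345 to 6547 CPM, with 1 above the limit. UMIs of Cdh1 or Spint2, epithelial genes that the rule did not use, were present in 12 of the 12 cells. Beside 714 UMIs of Cd74 these cells held 4 of Lyz2, 6 of the C1q genes, 5 of the myeloid adaptor Tyrobp, and 0 each of the dendritic cell genes Itgax and Flt3, the B cell genes Cd79a and Ms4a1, and the T cell genes Cd3e and Cd3d. Their depth ran from 3490 to 29863 UMIs (median 19347.5). Their median interferon sum was 4896 CPM, against 4334 in the other resistant-labelled cells, and their median class I sum was 20207 against 13770 CPM.

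**Figure D4:**
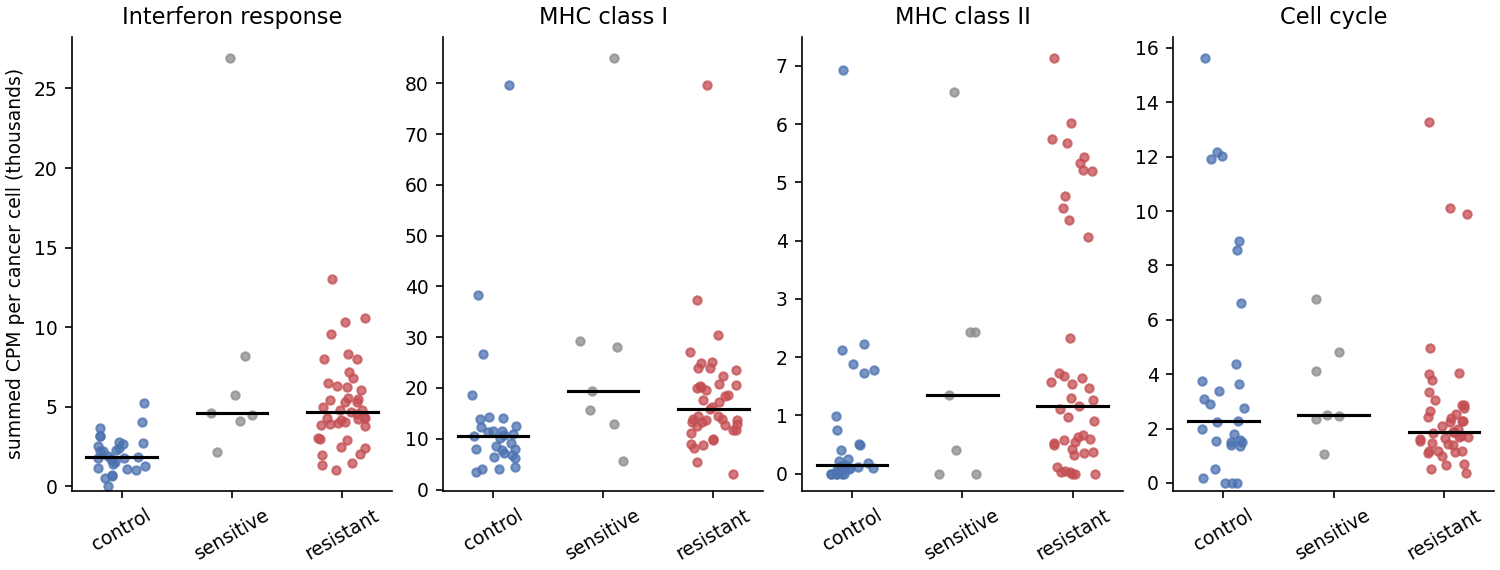
Summed CPM per cancer cell, in units of 1000 CPM, of the interferon response, MHC class I, MHC class II and cell cycle lists for 29 control-labelled, 7 sensitive-labelled and 43 resistant-labelled cells, 1 point a cell and a line at the median. Interferon sums are shifted up in the resistant-labelled cells, class II sums show a separate upper set of 12 cells there, and high cell cycle sums belong to few cells in each library.

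Across the cells with at least 2000 UMIs, interferon and class I sums ranked alike in both libraries. Spearman's rho was 0.60 over 26 control-labelled and 0.54 over 42 resistant-labelled cells, given as a description of cells that share a library and a scaling to their own depth. With class II sums it was 0.47 and 0.22. With depth it was near 0, at -0.04 and 0.13, and with cell cycle sums it was -0.43 and 0.27. Between cell cycle sums and depth rho was 0.49 and 0.44.

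Cell cycle genes were lower in the resistant-labelled cells, a difference that was not seen without 7 cells of each library that held neutrophil receptor transcripts. The 31 listed genes summed to 6369 and 3267 CPM, a ratio of 0.51 (0.49 to 0.54), and 30 of the 31 had a lower CPM in the resistant-labelled cells. Of 17 genes compared 9 were at most 0.5 (2.57% of all genes compared), with a median ratio of 0.46, but 8 of the 17 had under 50 UMIs in the resistant-labelled cells, so that count is a description only. Top2a, the DNA topoisomerase that DOX poisons, had 124 UMIs in 6 of 29 control-labelled and 42 UMIs in 9 of 43 resistant-labelled cells, a ratio of 0.20 (0.14 to 0.29). The nucleotide synthesis gene Rrm2 stood at 0.16 (0.08 to 0.31), cyclin A2 (Ccna2) at 0.18 (0.10 to 0.31) and the mitotic kinase gene Cdk1 at 0.40 (0.28 to 0.57). H2afz, a histone variant gene, was at 1609 and 560 CPM, a ratio of 0.35 (0.31 to 0.39).

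Without each gene's top cell, 5 of the 9 stayed at most 0.5. Leaving out the 7 cells of each library with UMIs of at least 2 of the neutrophil genes Csf3r, Cxcr2, Il1r2 and Retnlg, cells with medians of 33919 and 37918 UMIs, removed 52.0% and 28.3% of the UMIs. Of the list 6 genes then remained to compare, with a median ratio of 1.23 and 0 at most 0.5 (1.05% of all genes then). H2afz and Hmgb2 turned to log2 ratios of 0.37 and 0.29. Per cell, the summed level ran from 0 through a median of 2285 to 15630 CPM in the control-labelled and from 363 through 1874 to 13283 CPM in the resistant-labelled cells, largely overlapping, and from 1076 through 2497 to 6749 CPM in the 7 sensitive-labelled cells. At 2000 UMIs, 17 of 26 (65.4%, 44.3 to 82.8) and 21 of 42 cells (34.2 to 65.8%) had at least 3 cell cycle genes, with intervals that overlap. Without the 3 deepest cells of each library, 9 genes remained, with a median ratio of 0.54 and 4 at most 0.5. The part of depth or of neutrophil RNA in the difference was not tested.

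Genes outside the list were also among the lowest ratios. Insig1, a regulator of sterol synthesis, had 44 UMIs in 13 control-labelled and 9 UMIs in 8 resistant-labelled cells, a ratio of 0.12 (0.05 to 0.26), and fatty acid synthase (Fasn) stood at 0.33 (0.19 to 0.54). Fabp5, a fatty acid carrier, was at 269 and 91.9 CPM, a ratio of 0.34 (0.25 to 0.46), and turned to a log2 ratio of 1.15 without the 7 cells of each library with neutrophil receptor transcripts. The histone gene Hist1h2ap (0.16), Atad2 (0.26), Pclaf (0.28) and Cenpw (0.32) and the cell cycle gene Ube2c (0.32) were also low, and Naa10, an acetyltransferase gene, stood at 0.25. Mmp9, a gelatinase, had 94 and 50 UMIs, a ratio of 0.32 (0.22 to 0.46). At 2000 UMIs Mmp9 was seen in 19.2% and 9.52% of cancer cells and in 56.3% and 40.8% of neutrophils, and the part of neutrophil RNA in its ratio was not tested. For Hist1h2ap 1 control-labelled cell held 176 of 249 UMIs, and the ratio was 0.49 without it.

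Several of the highest ratios belonged to the collagen-rich cell. The chemokine genes Ccl7 and Ccl2 had ratios of 53.6 and 44.8, which were 2.92 and 3.12 without it, and Lox, a collagen cross-linking enzyme, went from 46.3 to 1.56. Saa3, an acute phase gene, went from 15.6 to 1.03 and Rarres2 from 17.1 to 0.83. Il6 had 57 UMIs, all in this cell, and 0 in the control-labelled cells, at least 11.4-fold higher by the limit of 3 counts. Timp1 and Thbs1 of the matrix list had ratios of 2.34 and 2.38, and 1.099 and 1.48 without it. Mmp13, a collagenase, had a ratio of 5.93 (2.73 to 15.3), or 3.07 without its top cell. Single cells of other kinds mattered too: 169 of 187 Hmox1 UMIs and 83 of 97 Ccl5 UMIs lay in 1 resistant-labelled cell each. Ly6c1, a Ly6 family surface protein gene, had 7 UMIs in 5 and 104 UMIs in 25 cells, a ratio of 8.94 (4.19 to 22.8), or 6.70 without the collagen-rich cell.

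Among stress genes the metallothioneins, which bind zinc and heavy metals, were higher. Mt1 was at 1270 and 3585 CPM, a ratio of 2.82 (2.59 to 3.08), or 2.07 without the collagen-rich cell, and Mt2 had a ratio of 2.30 (2.10 to 2.54), or 1.79 without it. Mt1 per cell ran from 0 through a median of 664 to 13704 CPM in the control-labelled and from 0 through 970.5 to 28422 CPM in the resistant-labelled cells. Of 18 genes of oxidative stress and metal response compared, 3 were at least 2-fold higher (4.69% of all genes), Mt1, Mt2 and Hmox1. None of 6 p53 target and DNA damage genes, 10 integrated stress response genes, 10 apoptosis regulators or 22 immediate early and heat shock genes passed 2-fold either way (7.26% of all genes). With cells weighted alike 2 of the 6 p53 target genes were at least 2-fold higher (6.91% of all genes with that weighting). The p53 target Cdkn1a had 19 and 33 UMIs, a ratio of 1.05 (0.58 to 1.95), Bax was at 0.61 (0.44 to 0.85) and Trp53 itself had 14 and 23 UMIs.

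Genes that DOX targets or that pump it out mostly stayed within 2-fold. Of 5 compared, 1 was at most 0.5 (2.57% of all genes), Top2a, and the efflux pump genes Abcb1b and Abcc3 had ratios of 1.08 (0.61 to 1.97) and 1.94 (1.13 to 3.50). Of 23 glycolysis and hypoxia genes, 20 had a ratio above 1, with a median of 1.29, and 2 were at least 2-fold higher (4.69% of all genes), the carbonic anhydrase Car9 at 2.13 (1.47 to 3.16) and P4ha1 at 2.15 (1.28 to 3.79). Both were under 2 without their top cell.

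The receptor subunits for IL-17A had few UMIs, Il17ra 9 and 12 and Il17rc 11 and 12. At 2000 UMIs Il17ra was seen in 3.85% and 2.38% of cancer cells and in 13.8% and 22.5% of neutrophils. The part of neutrophil RNA in these counts was not tested. Of 11 genes of the IL-17 list compared, 1 was at least 2-fold higher (4.69% of all genes), Il6, in the collagen-rich cell alone, and 2 were at most 0.5 times (2.57%), S100a8 and S100a9, which are also neutrophil genes. With 2 rule genes enough for a cancer cell, their log2 ratios were 0.30 and -0.06. In that setting 0 genes of the list were at most 0.5 times (3.06% of all genes). The neutrophil chemokine gene Cxcl1 was at 1055 and 1043 CPM, a ratio of 0.99 (0.89 to 1.105), and the lipocalin Lcn2 at 1.56 (1.39 to 1.76). Of ligands that T cells or phagocytes read, Cd274, the gene of PD-L1, had 2 and 9 UMIs, under the limit of 50, Cd47 was at 1.23 (0.97 to 1.58), and galectin 9 (Lgals9) at 4.06 (1.92 to 9.88), with 8 and 54 UMIs. At 2000 UMIs Lgals9 was seen in 0 of 26 and 1 of 42 cancer cells and in 13.8% and 22.5% of neutrophils. It was under 50 UMIs, and so not compared, without the 3 deepest cells of each library or without the cells with neutrophil receptor or fibroblast transcripts.

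Of 12 epithelial genes outside the rule, 0 were at least 2-fold higher (4.69% of all genes) and 1 was at most 0.5 (2.57%), Sfn (0.44, 0.33 to 0.59), which turned to a log2 ratio of 0.27 without the cells with neutrophil receptor transcripts, with a median ratio of 1.13. Of 7 genes linked with mesenchymal transition 1 was at least 2-fold higher (4.69% of all genes), Sparc, with 260 of its 347 UMIs in the collagen-rich cell and a ratio of 1.47 without it. Vim and Fn1, both abundant in 4T1 cells here, stood at 0.96 (0.89 to 1.04) and 1.38 (1.27 to 1.51).

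**Figure D5:**
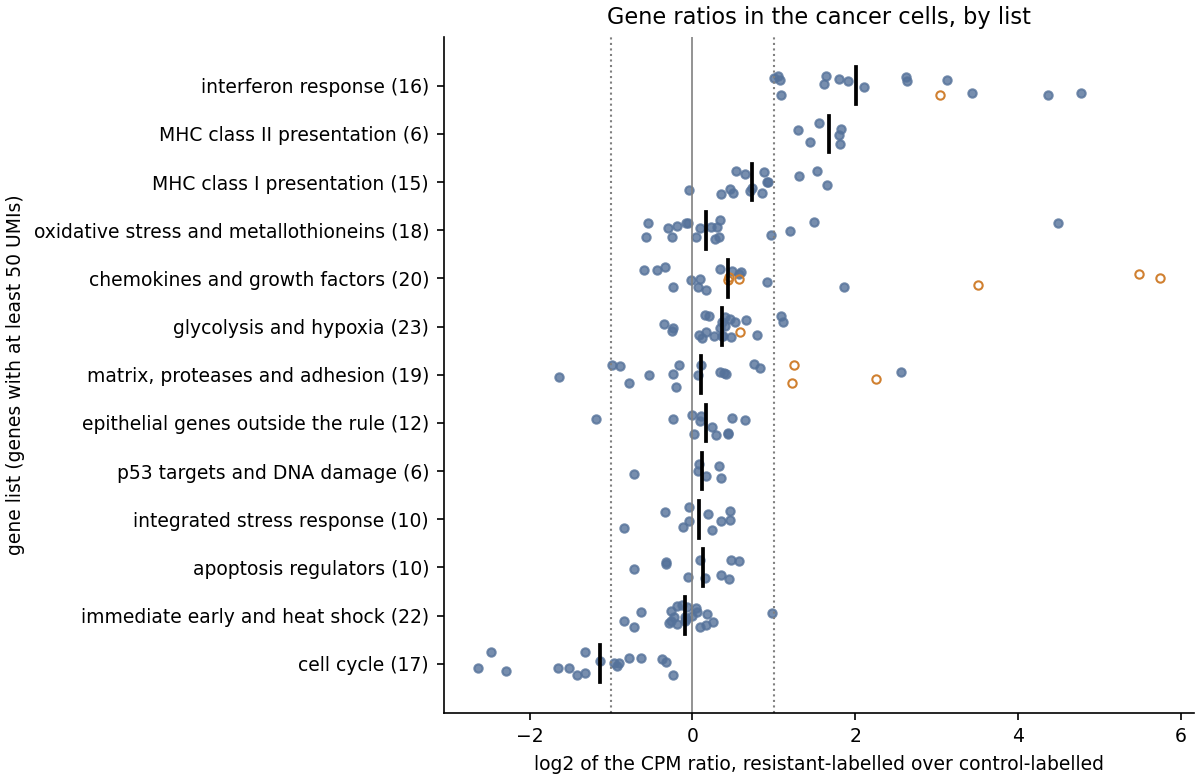
Log2 CPM ratio, resistant-labelled over control-labelled cancer cells, for the genes with at least 50 UMIs of 13 lists (number of genes in parentheses), 1 point a gene and a line at the median. Dotted lines mark 2-fold, and open orange points are genes whose ratio fell by over 1.5 times without the collagen-rich cell. The interferon list lies wholly at or beyond 2-fold (median ratio 4.02), the cell cycle list lies below 0 (median ratio 0.46) and the p53, stress response and apoptosis lists lie between the dotted lines. Of the 16 interferon genes 13 had under 50 UMIs in the control-labelled cells. Of the 17 cell cycle genes 8 had under 50 in the resistant-labelled cells, so these positions are a description only.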

How the data were processed

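Whole-tumor cells were sequenced on the 10x Genomics 3′ platform. The authors aligned reads to mm10, per the submitters' processing notes, with Cell Ranger (3.0.1 per the file headers) and deposited UMI counts per gene and barcode, neither normalized nor corrected for free RNA. The files list 54987 features, and symbols were brought to the reference's by gene ID. Groups followed the library titles. Members and gene lists were chosen with earlier results of these data known. UMIs were summed over the cancer cells of each library and given as CPM with exact Poisson intervals. A library at 0 was read as 3 counts over its summed cells. All list genes could be named, with the 12 highest and 12 lowest ratios among genes with UMIs in at least 5 cells of the higher library, the same direction with cells weighted alike, and on no list of another cell type. Calculations used Python 3.11.15, numpy 2.4.6, pandas 2.3.3 and scipy 1.17.1, and were tested on simulated counts. The T cell libraries were not used here. Single genes that are part of a list's counts are in places not reported here by name.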

Additional observations from a re-analysis of the deposited data

How the results depend on the processing

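No paired analysis was possible because each group held 1 library. The share ratio stayed within its interval under all 7 alternatives, at 2.16 to 2.97. The count of genes at least 2-fold higher (146) became 507 with a minimum of 20 UMIs, 61 with 100 UMIs, 92 without cells with at least 2 of 5 fibroblast genes, 93 without cells with at least 2 neutrophil receptor genes and 90 without each gene's top cell. The count at most 0.5 times (80) became 262, 36, 21 without those neutrophil receptor cells, 45 without top cells, 37 without the 3 deepest cells of each library and 140 with cells weighted alike. Thinned to 2000 UMIs a cell, 321 genes remained, with 7 and 8 past 2-fold. The alternatives without the collagen-rich cell and without top cells were chosen after seeing the data.

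The interferon list's median ratio was 2.73 to 7.66 under all 14 alternatives, the class II list's 2.50 to 4.37. Both lower ends came from thinning to 2000 UMIs, which left only 2 interferon genes and 1 class II gene to compare. Without the Ptprc limit 14 of 21 interferon genes were at least 2-fold higher (5.13% of all genes in that setting). In it 2 were at most 0.5 times (2.34%). With 2 rule genes enough, the log2 ratio turned negative for Lox (-0.22), Rarres2 (-2.11), Sparc (-0.51), Thbs1 (-0.38) and Timp1 (-1.34) and positive for S100a8 (0.30). Without the neutrophil receptor cells the median of the cell cycle list (0.30) turned, as did Fabp5 (1.15), Sfn (0.27), H2afz (0.37) and Hmgb2 (0.29). The checkpoint ligand list stood at -0.17 there, but with 1 gene left to compare instead of 2. Without top cells Rarres2 (-0.26) and Ccl5 (-0.85) turned. The causes were not tested. The share of control-labelled cells with at least 3 interferon genes (30.8%) was 66.7% at 5000 UMIs and 72.4% unthinned, and that of resistant-labelled cells (90.5%) was 46.5% at 1000 UMIs and 100% unthinned. It stayed higher in the resistant-labelled cells at each depth. With 29 and 43 cells from 1 library each, differences between tumors and between groups cannot be told apart, and genes under 50 UMIs were not compared.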
